A study of Mus musculus with 4 samples.

Results

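The genes of glucose uptake and glycolysis examined here were the glucose transporters *Slc2a1* and *Slc2a3*, the hexokinases *Hk1* and *Hk2*, the phosphofructokinases *Pfkl* and *Pfkp*, phosphoglycerate kinase *Pgk1*, enolase *Eno1* and the lactate dehydrogenases *Ldha* and *Ldhb*. They were chosen by the gene name that the array design gives each probe, and are 10 of the 37074 genes named on the array, with 26 of its 56604 probes.

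RNA of whole mouse embryos was measured on 4 one-colour Agilent arrays, where the brightness of a Cy3-labelled sample is read at spots of short DNA probes. The groups were C57BL/6 wild type (WT) embryos at E8.5 (embryonic day 8.5), C57BL/6 embryos labelled as *Dyrk2* knockout (*Dyrk2*-/-) at E8.5, and the same 2 genotypes at E10.5, with 1 array each on 1 slide. The knockout lines carry small deletions made with the CRISPR/Cas9 nickase system, and which line and how many embryos stand behind each array is not given in the sources used here. With 1 array per group there was no replicate check and no p-value for a difference between 2 arrays, and precision is limited by their number. The RNA came from whole embryos, so that fewer cells of a type and less RNA per cell cannot be told apart.

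In background terms, glucose enters the cell through carriers of the Slc2a family, is trapped by hexokinase as glucose 6-phosphate, committed to glycolysis by phosphofructokinase and broken down to pyruvate, with ATP made at the phosphoglycerate kinase and pyruvate kinase steps. Lactate dehydrogenase then interconverts pyruvate and lactate and thereby recycles NAD. The early postimplantation embryo is known for a high rate of lactate production from glucose, and several of these genes are textbook targets of the hypoxia-inducible factors.

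Levels are given as log2 of the processed intensity minus the 75th percentile of the array, in the order WT and then *Dyrk2*-/--labelled array. A probe that the scanner software marks as bright enough is called well above background, and a gene stands for its brightest probe unless another is named. A gene was called changed between 2 arrays at 1.5-fold or more. Probes printed several times on an array had a median SD between spots of 0.09 and 0.12 at E8.5 and, at the later stage, 0.07 and 0.08, a spread that is technical only. For a difference between 2 arrays this amounts to 0.15 between the genotypes at E8.5, 0.11 between them at E10.5, 0.12 between the stages in WT and 0.14 between the stages in the *Dyrk2*-/--labelled pair.

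The targeted gene was looked at first. The E8.5 arrays read 0.06 and 0.76 at the brightest *Dyrk2* probe and those of E10.5 read −0.31 and 0.34. By the 1.5-fold rule this probe was called higher on the array labelled *Dyrk2*-/- at each stage, 1.62-fold and 1.57-fold. Its log2 ratio stayed above 0 under each scaling and background correction tried. Both calls were lost without scaling (0.44 and 0.52), and that of E8.5 under spike-in scaling (0.15). Limma's adjusted p for the genotype at this probe was 0.240. A further probe read −0.23 and −0.20 and then −0.28 and −0.0048, and its E8.5 ratio turned below 0 under spike-in scaling and without scaling. A small deletion need not lower the transcript, and these probes leave the labels unchecked, so that a direction between genotypes below is that of the submitters' labels. The genes of the sex chromosomes also differed between the E10.5 arrays and between the stages in the *Dyrk2*-/--labelled pair, which bears on *Pgk1* as an X-linked gene. Of the 4 arrays, that of E10.5 labelled *Dyrk2*-/- alone had *Xist*, the RNA of the inactive X chromosome, well above background, at least 20.4-fold over WT, and it alone lacked such signal at the brightest probes of the Y-linked *Ddx3y*, *Eif2s3y*, *Kdm5d* and *Uty*.

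All 10 genes had a brightest probe well above background on each of the 4 arrays. The main difference lay between the stages. From E8.5 to E10.5 in WT, 6 of the 10 genes were called lower, against 17.5% of 21643 genes tested, and 1 was called higher, against 18.8%. In the *Dyrk2*-/--labelled pair 6 were called lower, against 13.9% of 21266 genes, and 2 higher, against 17.6%. The median log2 ratio of the 10 genes was −0.96 in WT and −0.99 in the *Dyrk2*-/--labelled pair, beside −0.08 and −0.05 over all genes tested. *Slc2a1*, *Slc2a3*, *Hk2*, *Pfkl* and *Pfkp* were called lower and *Ldhb* higher in both pairs, and these 6 genes were called so under each scaling and background correction tried.

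The stage was tested over both genotypes with limma, with the genotype as a block, on 32289 probes, which leaves a residual of 1 degree of freedom. With p-values adjusted over these probes after Benjamini and Hochberg, and a threshold of 0.05, 6 of the 10 genes fell (*Slc2a1*, *Slc2a3*, *Hk2*, *Pfkl*, *Pfkp* and *Pgk1*), against 19.6% of all probes, and *Ldhb* rose, against 15.7%. *Hk1*, *Eno1* and *Ldha* did not pass. Without scaling *Hk1* was called higher and *Pgk1* was not called. When the arrays were scaled by their spike-in control probes, limma called *Slc2a3* lower and *Ldhb* higher and none of the other 8. Without the intensity trend of the variance model it called 6 of the 10 genes, and *Pgk1* was not among them. The lowest adjusted p of the 10 genes for the stage was then 0.00415, against 3.43e-07 with the trend. Stage p-values and SEs below are those with the trend, and their size depends on that setting.

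Between the genotypes at E8.5, *Hk1* was the 1 of the 10 genes called, lower on the array labelled *Dyrk2*-/-, against 11.6% of 20709 genes called in either direction. At E10.5 none of the 10 was called, against 7.72% of 21209 genes. Their median log2 ratios were 0.03 and then 0.08, beside −0.02 and −0.0008 over all genes. Limma's test of genotype over both stages called 0 of the 10 genes at an adjusted p under 0.05, against 0.0186% of all probes. Of the 20 probes of these genes in the fit, 5 had an unadjusted p under 0.05, against 4.93% of all probes, the lowest adjusted p was 0.664 for *Ldhb*, and without the intensity trend the count was also 0. Limma did call *Hk1* and *Ldhb* without scaling, where 729 probes in all were called, and *Hk1* without the filter on dim probes, where 564 were. Scaling moved these comparisons: spike-in scaling shifted the median of all genes by −0.55 at E8.5 and by 0.16 at E10.5, and 10 of the 10 genes were then below 0 at E8.5, with *Hk1*, *Hk2*, *Eno1* and *Ldhb* called, against 49% of all genes (97.1% of those called were lower), and 8 above 0 at E10.5. Without scaling the shifts were −0.26 and −0.13, with 8 of the 10 genes below 0 at each stage and *Hk1* and *Ldhb* called at E8.5, against 17.8% of all genes. Between the stages, spike-in scaling shifted the median by −0.07 in WT and by 0.64 in the *Dyrk2*-/--labelled pair, and leaving out the scaling by 0.18 and 0.31.

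**Figure D1:**
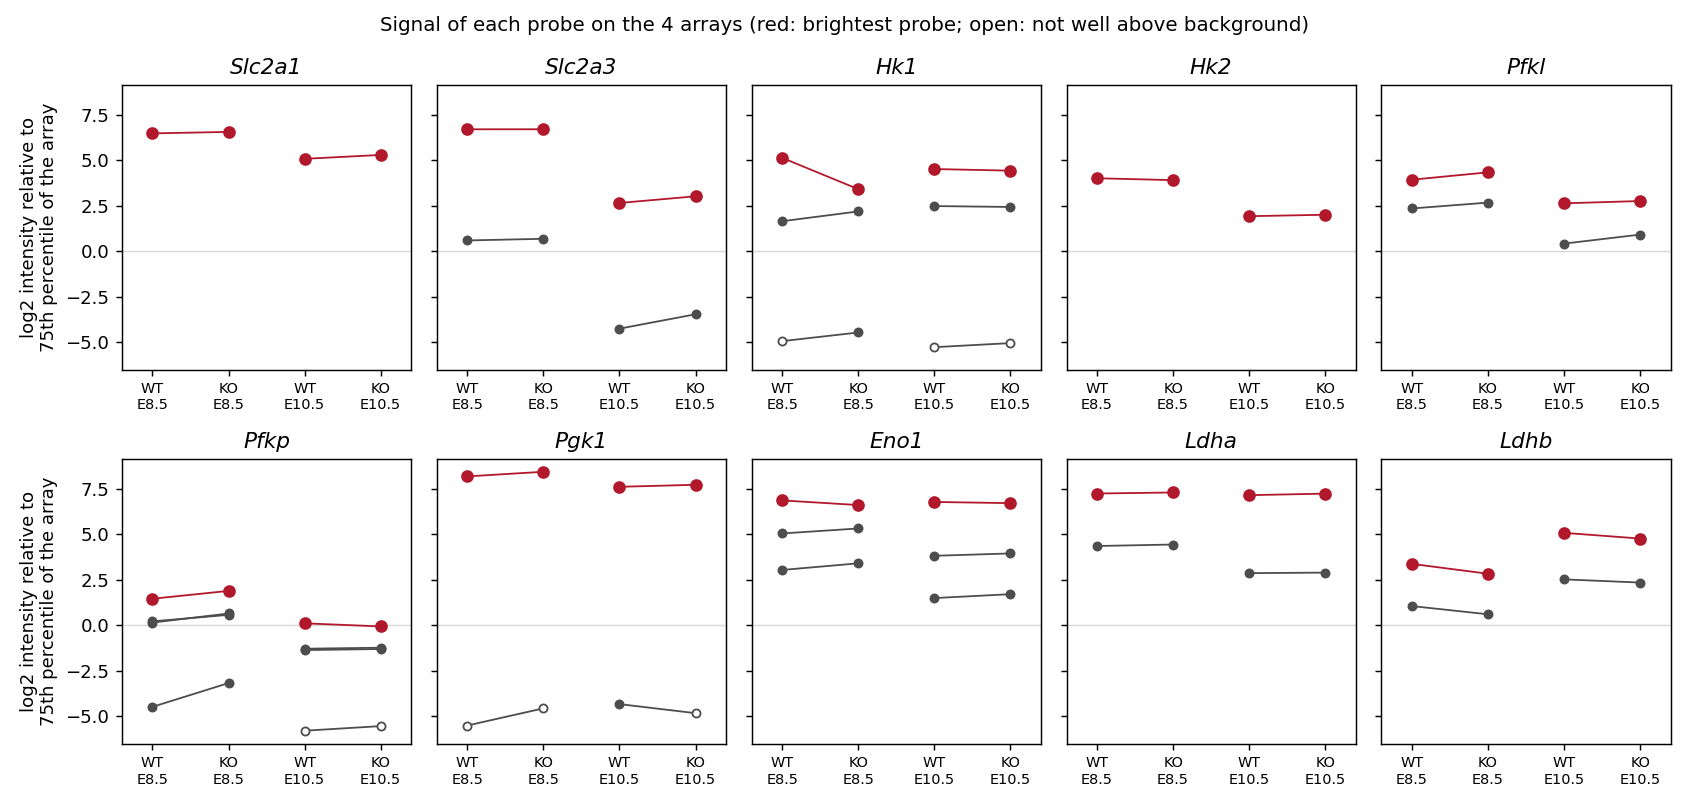
Levels of the 10 genes on the 4 arrays (vertical axis, log2 intensity relative to the 75th percentile of the array; 1 panel per gene; KO marks the arrays labelled *Dyrk2*-/-). Red marks the brightest probe, grey the others with signal well above background on 1 or more arrays, and open symbols values not well above background. The brightest *Slc2a3* probe lies at 6.71 on both E8.5 arrays and at 2.66 and 3.02 on the E10.5 arrays, while the brightest *Ldha* probe stays between 7.16 and 7.30.

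Among the transporters, *Slc2a3*, which encodes the high-affinity carrier GLUT3, showed the largest range of the 10 genes, 4.05 on the log2 scale. Its brightest probe (NM_011401, chr6:122678075-122678134, mm9) was at 6.71 and 6.71 at E8.5 and at 2.66 and 3.02 at E10.5. Both E8.5 arrays lay above both E10.5 arrays. The level was 16.6-fold lower at E10.5 in WT and 12.9-fold lower in the *Dyrk2*-/--labelled pair, and limma gave a log2 difference of −3.87 ± 0.13 (SE), adjusted p = 3.43e-07, lower in 2 of 2 genotypes. The other *Slc2a3* probe (chr6:122681586-122682419, mm9), whose 60 bases are spread over 834 bases of the genome and so lie on either side of an intron, was at 0.60 and 0.69 at E8.5 and at −4.25 and −3.46 at E10.5. That probe was 28.8-fold lower at E10.5 in WT and 17.8-fold lower in the other pair (limma adjusted p = 1.11e-06). Its WT value at E10.5 lay near −4.72, the least value well above background on that array, which limits ratios taken against it. Between the genotypes at E10.5 the log2 ratio was 0.37 at the brightest probe and 0.79 at the other, which was 1.73-fold higher on the array labelled *Dyrk2*-/- and the only member probe called at that stage.

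*Slc2a1*, which encodes GLUT1, the carrier found in most embryonic tissues and in red cells, has 1 probe (NM_011400, chr4:118809864-118809923, mm9). It was at 6.48 and 6.57 at E8.5 and at 5.09 and 5.30 at E10.5, with no overlap between the stages. The fall was 2.64-fold in WT and 2.41-fold in the *Dyrk2*-/--labelled pair (limma log2 difference −1.33 ± 0.11, adjusted p = 3.69e-05). The log2 ratios between genotypes were 0.08 and then 0.21, neither called.

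Of the hexokinases, *Hk2*, which encodes the inducible enzyme of muscle and fast-growing cells, also has 1 probe (NM_013820, chr6:82675056-82675115, mm9). Its level was 4.02 and 3.91 at the earlier stage, against 1.93 and 2.01 later, so that the stages again did not overlap. It was 4.25-fold lower at E10.5 in WT and 3.74-fold lower in the *Dyrk2*-/--labelled pair (limma adjusted p = 5.23e-06), with log2 ratios between genotypes of −0.10 and 0.08.

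*Hk1*, which encodes the widely expressed hexokinase bound to mitochondria, differed from *Hk2* in both kinds of comparison. Its brightest probe (J05277, chr10:61731230-61731288, mm9) was at 5.14 and 3.42 at E8.5 and at 4.52 and 4.43 at E10.5. The E8.5 array labelled *Dyrk2*-/- was thus the low value, 3.29-fold below WT, and the log2 ratio at E10.5 was −0.09. Between the stages this probe was 1.53-fold lower at E10.5 in WT, a call lost under quantile normalization, without scaling, with normexp and in the deposited table, and 2.02-fold higher in the *Dyrk2*-/--labelled pair. Limma gave a stage difference of 0.20 ± 0.29 (adjusted p = 0.629) and a genotype difference of −0.90 ± 0.29 (adjusted p = 0.828), and whether the stage difference differs between genotypes was not tested. A second *Hk1* probe well above background on all 4 arrays (NM_001146100, chr10:61731856-61731915, mm9) did not show this pattern. It was at 1.65 and 2.19 at E8.5 and at 2.49 and 2.44 at E10.5, with a log2 ratio between genotypes of 0.54 at E8.5 but −0.05 at E10.5, and limma's stage difference was 0.54 ± 0.16 (adjusted p = 0.0248). The 2 probes therefore gave opposite directions for the genotypes at E8.5, and the 3 further *Hk1* probes were well above background on 1 array or on none. When its probes were averaged, *Hk1* was called in none of the 4 comparisons. That average includes a probe well above background on 1 array alone, with an E8.5 log2 ratio between genotypes of 0.48.

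Phosphofructokinase carries out the committed step. The brightest probe of *Pfkl*, the liver-type subunit, was at 3.94 and 4.34 at E8.5 and at 2.64 and 2.76 at E10.5 (NM_008826, chr10:77450926-77450985, mm9). It was 2.46-fold lower at E10.5 in WT and 2.98-fold lower in the *Dyrk2*-/--labelled pair (limma log2 difference −1.44 ± 0.12, adjusted p = 4.22e-05). A further *Pfkl* probe moved the same way, with log2 ratios of −1.93 and −1.76. *Pfkp*, the platelet-type subunit, was at 1.46 and 1.89 at E8.5 and at 0.11 and −0.06 at E10.5 (NM_001291071, chr13:6580589-6580648, mm9). Its fall was 2.55-fold in WT and 3.88-fold in the other pair (limma log2 difference −1.65 ± 0.16, adjusted p = 8.96e-05). The 2 further *Pfkp* probes well above background on all 4 arrays were 2.84-fold and 2.85-fold lower at E10.5 in WT and 3.50-fold and 3.87-fold lower in the *Dyrk2*-/--labelled pair. Another *Pfkp* probe, well above background at E8.5 only, was 2.47-fold higher there on the array labelled *Dyrk2*-/-. Between the genotypes at E8.5 the log2 ratio was 0.40 for *Pfkl* and 0.43 for *Pfkp*, under the 1.5-fold threshold, and both were below 0 under spike-in scaling.

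At the brightest probes of *Pgk1*, *Eno1* and *Ldha* the stage difference was smaller than for the transporters, *Hk2* and the phosphofructokinases. *Pgk1*, on the X chromosome, encodes the enzyme of the first ATP-forming step (NM_008828, chrX:103398915-103398974, mm9). It was at 8.19 and 8.44 at E8.5 and at 7.62 and 7.73 at E10.5, with both E8.5 arrays above both E10.5 arrays. The level was 1.49-fold lower at E10.5 in WT and 1.64-fold lower in the *Dyrk2*-/--labelled pair (limma log2 difference −0.64 ± 0.11, adjusted p = 0.00230). The call in the latter pair was lost under spike-in scaling and without scaling, while in WT the gene was called lower under spike-in scaling and with normexp. When its 2 probes were averaged, that of the opposite strand included, the log2 ratio turned to 0.30 in WT and was −0.49 in the other pair, neither called. The ratio of the opposite-strand probe in WT, not well above background at E8.5, was 1.18. At E10.5, where the sex chromosome genes differed, the log2 ratio of the brightest *Pgk1* probe between genotypes was 0.11. Those genes also differed between the stages in the *Dyrk2*-/--labelled pair, with *Xist* at least 17.9-fold higher at E10.5. Their part in the genotype ratio, in the stage difference of that pair and in limma's stage difference was not tested. The other *Pgk1* probe lies on the opposite strand and was well above background on the WT E10.5 array alone.

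*Eno1* encodes the enolase of most tissues and has 3 probes, which disagreed. The brightest (NM_023119, chr4:149622928-149622987, mm9, from base 1721 of the transcript) was at 6.87 and 6.61 at E8.5 and at 6.78 and 6.72 at E10.5, and limma's stage difference was 0.01 ± 0.11 (adjusted p = 0.958). Under spike-in scaling this probe was called higher at E10.5 in the *Dyrk2*-/--labelled pair, with a log2 ratio of 0.74. A probe nearer the start of the same transcript (base 413, chr4:149618134-149618359) was at 5.05 and 5.32 at E8.5 and at 3.82 and 3.95 at E10.5. It was 2.34-fold lower at E10.5 in WT and 2.59-fold lower in the *Dyrk2*-/--labelled pair (limma adjusted p = 4.81e-05). The last of the 3 (ENSMUST00000130632, chr4:149616665-149616724) was at 3.04 and 3.41 and then at 1.497 and 1.71, or 2.92-fold and 3.24-fold lower (limma adjusted p = 1.94e-05).

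The probes of *Ldha*, which encodes the subunit that predominates in glycolytic tissue, were split in the same manner. Its brightest probe (NM_001136069, chr7:54110937-54110996, mm9, from base 1755) had the smallest range of the 10 genes, 0.15, with 7.25 and 7.30 at E8.5, then 7.16 and 7.24, and limma's stage difference was −0.08 ± 0.11 (adjusted p = 0.619). The probe from base 351 of that transcript (chr7:54103010-54103069) was at 4.36 and 4.44 at E8.5 and at 2.87 and 2.90 at E10.5. It was 2.81-fold lower in WT and 2.92-fold lower in the *Dyrk2*-/--labelled pair (limma log2 difference −1.52 ± 0.12, adjusted p = 2.05e-05). Whether *Ldha* and *Eno1* fell between the stages thus depended on the probe, and the cause was not tested. When probes were averaged, both genes were called lower in each pair.

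*Ldhb*, which encodes the subunit that predominates in oxidative tissue such as heart, went the other way. Its brightest probe (NM_008492, chr6:142438829-142438888, mm9) was at 3.38 and 2.84 at E8.5 and at 5.08 and 4.77 at E10.5. Both E10.5 arrays lay above both E8.5 arrays. The rise was 3.26-fold in WT and 3.82-fold in the *Dyrk2*-/--labelled pair (limma log2 difference 1.82 ± 0.12, adjusted p = 9.04e-06). A further probe, whose bases are spread over 2823 bases of the genome, rose too, from 1.06 and 0.61 to 2.53 and 2.35 (limma adjusted p = 3.05e-05). Between the genotypes *Ldhb* was lower on both arrays labelled *Dyrk2*-/-, with log2 ratios of −0.54 at E8.5 and −0.31 at E10.5, each under the 1.5-fold threshold. Limma's adjusted p for this difference was 0.664, with an unadjusted p of 0.00621.

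**Figure D2:**
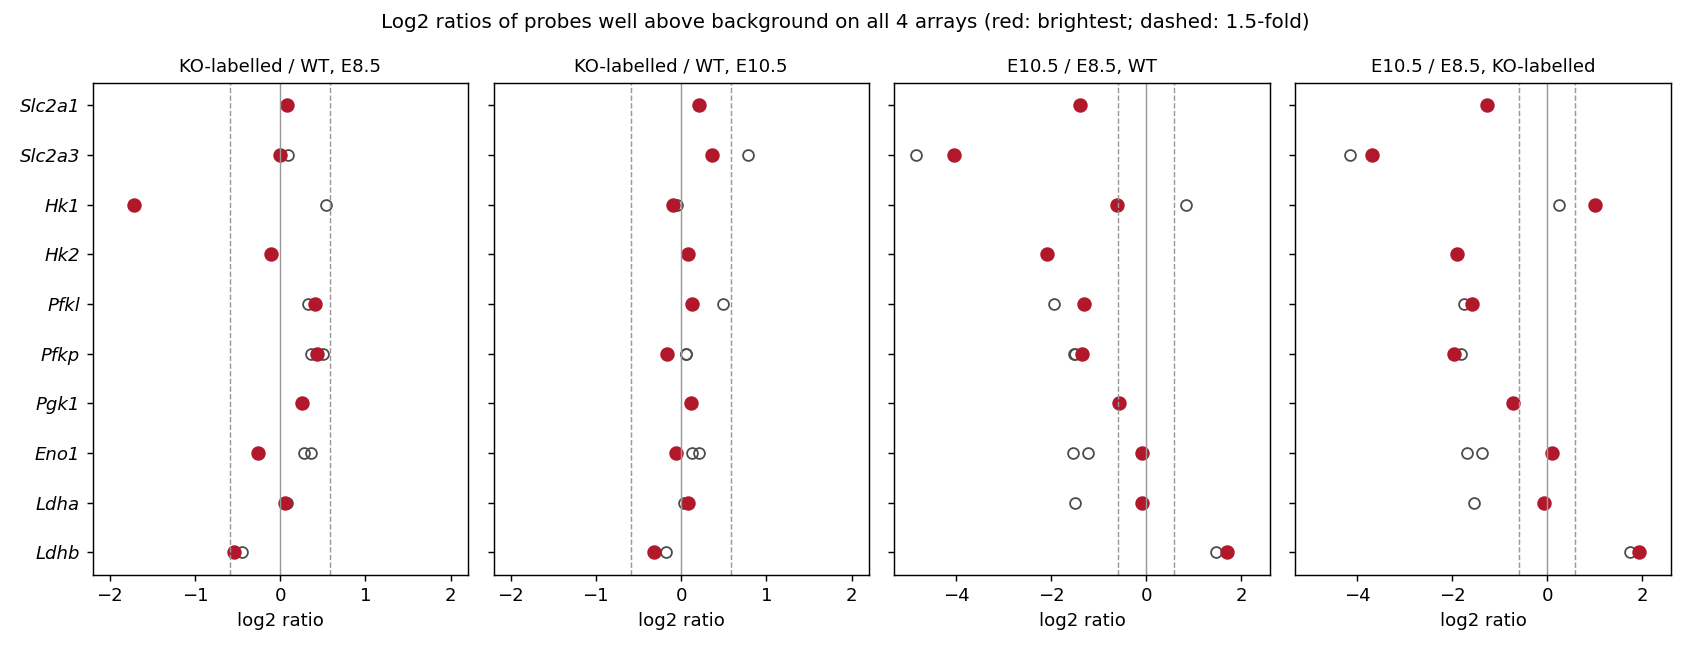
Log2 ratios of the 19 probes of the 10 genes that were well above background on all 4 arrays, in the 4 comparisons (horizontal axis, log2 ratio; red, brightest probe of a gene; open, other probes; dashed lines, 1.5-fold). In each stage comparison 13 probes pass the threshold as lower and 3 as higher at E10.5, while 1 probe passes it between the genotypes at each stage. Of the 28622 probes of the array well above background throughout, 3.87% pass it between genotypes as higher and 3.06% as lower at E8.5. At E10.5 it is 1.55% each way. Scaling moves all points of a comparison together, and under spike-in scaling the E8.5 genotype ratios of the 10 brightest probes are all below 0.

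Counted over probes, 19 of the 26 were well above background on all 4 arrays and 4 on none. Of the 19, 13 were called lower at E10.5 and 3 higher in WT, against 15.2% and 13.9% of the 28622 probes of the array that were well above background throughout. In the *Dyrk2*-/--labelled pair 13 and 3 were called so, against 12.9% and 11.8%. The median log2 ratio of the 19 was −1.35 in WT and −1.54 in the other pair, beside −0.10 and −0.09 over those probes. Of the 20 probes that entered the limma fit, 14 fell between the stages and 3 rose, against 19.6% and 15.7% of all 32289 probes. Probes of 1 gene share its transcript and are not independent.

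The probe sequences were searched for AATAAA. The brightest probes of *Hk1*, *Eno1* and *Ldha* hold AATAAA, the letters of the usual polyadenylation signal, which lies shortly before the end of a transcript. The *Hk1* probe holds it in 2 copies, of which 1 is shown. Up to 30 bases around it are given for these genes because their probes gave different results, with the 6 letters in capitals.

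Hk1: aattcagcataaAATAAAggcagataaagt

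Eno1: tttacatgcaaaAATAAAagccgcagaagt

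Ldha: agtgtcatgccaAATAAAaccttgaacagt

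AATAAA occurred in 4 of the 19 probes, the last of them the *Eno1* probe from base 413, and in 11.2% of the 28622 probes of the array that were well above background on all 4 arrays. The search was made on the probe strand. A match describes the letters and does not show where a transcript ends. The other *Slc2a3* probe, a further *Pfkp* probe (chr13:6581718-6583872), that *Eno1* probe and the further *Ldhb* probe are shown whole, since each spans an intron by its coordinates and its stage difference was past the limma threshold.

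Slc2a3: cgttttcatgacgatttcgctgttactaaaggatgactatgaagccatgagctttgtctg

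Pfkp: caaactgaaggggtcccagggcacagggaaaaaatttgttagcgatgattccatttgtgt

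Eno1: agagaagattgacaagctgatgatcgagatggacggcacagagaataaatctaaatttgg

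Ldhb: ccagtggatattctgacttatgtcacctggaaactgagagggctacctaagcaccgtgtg

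The remaining enzymes of the pathway were followed through a list of 21 genes. Of 19 tested between the stages, 9 were called lower and 2 higher in WT, against 17.5% and 18.8% of all genes, with a median log2 ratio of −0.56. In the *Dyrk2*-/--labelled pair 11 were called lower and 3 higher, against 13.9% and 17.6%, with a median of −0.75. Over the other scalings and background corrections 7 to 10 were lower in WT (median −0.63 to −0.38) and 5 to 10 in the other pair (median −0.65 to −0.11), where spike-in scaling gave 5 lower and 4 higher. Limma called 12 of 19 lower and 2 higher, against 19.6% and 15.7% of all probes. *Aldoa*, the aldolase of muscle and most embryonic tissue and the brightest gene of the list, fell from 8.32 and 8.49 to 7.47 and 7.53 (limma adjusted p = 0.000327). *Tpi1*, triose phosphate isomerase, fell from 6.46 and 6.84 to 5.66 and 5.57, and *Aldoc*, the brain-type aldolase, from 2.72 and 2.54 to 0.22 and 0.26. Spike-in scaling ended the 1.5-fold call of *Aldoa* in the *Dyrk2*-/--labelled pair, and quantile normalization and the deposited table that of *Tpi1* in WT. *Hkdc1*, a hexokinase-like gene, was 7.66-fold lower at E10.5 in WT and 8.81-fold lower in the other pair. *Hk3*, a hexokinase of blood cells, rose from −4.73 and −4.18 to −0.79 and −0.88 (limma adjusted p = 8.05e-06). The WT E8.5 value of *Hk3* lay near −4.82, the least value well above background on that array.

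Between the genotypes, 2 of 18 tested genes of that list were called at E8.5 and 2 of 17 at E10.5, against 11.6% and 7.72% of all genes. The medians were 0.08 and 0.03, and with the scaling used here limma called 0 of 19. At E8.5 spike-in scaling gave 7 lower and a median of −0.47, and leaving out the scaling 3 lower and a median of −0.18. With these 2 settings 49% and 17.8% of all genes were called at E8.5. *Ldhc*, the testis-type lactate dehydrogenase, was 2.11-fold lower on the E8.5 array labelled *Dyrk2*-/-, a call lost with normexp. *Pklr*, the pyruvate kinase of liver and red cells, was well above background at E10.5 only, at −4.13 and −2.64, which is 2.80-fold higher on the array labelled *Dyrk2*-/-. *Ldhal6b*, a lactate dehydrogenase-like gene named after its values were seen, was the other one called there, at least 1.42-fold higher on that array and not well above background on the WT array of the pair. With normexp neither was called.

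The other glucose transporters went both ways. Of 10 tested in WT, 5 were called higher and 1 lower at E10.5 (median 0.48), against 18.8% and 17.5% of all genes. In the *Dyrk2*-/--labelled pair 4 were called higher and 2 lower (median 0.12), against 17.6% and 13.9%. In WT 3 were higher with quantile normalization, normexp and the deposited table, and in the other pair 1 was with normexp and 6 under spike-in scaling (median 0.75). Limma called *Slc2a4*, *Slc2a9* and *Slc2a13* higher and *Slc2a2* lower, against 15.7% and 19.6% of all probes. *Slc2a4*, the insulin-responsive carrier GLUT4 of muscle and fat, rose from 0.18 and 0.46 to 1.54 and 1.41 (adjusted p = 0.000398), and *Slc2a13*, a proton-coupled myo-inositol carrier, from −3.57 and −3.48 to −1.58 and −2.19 (adjusted p = 0.000963). *Slc2a2*, the carrier GLUT2 of liver, pancreas and yolk sac, was at −2.70 and −3.51 at E8.5 and not well above background at E10.5. Between the genotypes 1 was called in each direction at each stage, where 11.6% and then 7.72% of all genes were called in either direction. *Slc2a6* was 1.79-fold higher and *Slc2a2* 1.76-fold lower at E8.5, and *Slc5a2* was 2.06-fold higher and *Slc2a13* 1.53-fold lower at E10.5. With normexp none of these 4 was called, and spike-in scaling ended the calls of *Slc2a6* and *Slc2a13*, and leaving out the scaling that of *Slc2a6*. At E8.5 they left 3 and 2 of 9 tested genes called, each lower, against 49% and 17.8% of all genes called.

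Genes of lactate and pyruvate handling went both ways. Of 16 tested, 6 were called higher and 6 lower at E10.5 in each pair (3 higher with normexp, and 8 higher and 4 lower under spike-in scaling, in the *Dyrk2*-/--labelled pair). Among all genes 18.8% were called higher and 17.5% lower in WT, and 17.6% and 13.9% in the other pair. Limma called 6 of the list higher and 7 lower, against 15.7% and 19.6% of all probes. *Slc16a1* (MCT1), a lactate and pyruvate carrier of the cell membrane, was at 4.80 and 4.29 at E8.5 and at 2.63 and 2.82 at E10.5 (limma log2 difference −1.82 ± 0.16, adjusted p = 5.01e-05). *Slc16a3* (MCT4), the lactate exporter of glycolytic cells, was at 5.81 and 5.51 and then at 3.95 and 3.95 (−1.71 ± 0.12, adjusted p = 1.43e-05). *Pdk1*, a kinase that inhibits pyruvate dehydrogenase, fell 2.32-fold in WT and 2.83-fold in the other pair. *Mpc1*, a subunit of the mitochondrial pyruvate carrier, rose from 0.85 and 1.05 to 2.61 and 2.61 (adjusted p = 2.19e-05), and *Pdp1*, a phosphatase that activates pyruvate dehydrogenase, from −1.55 and −1.68 to −0.24 and −0.36. Between the genotypes at E8.5, 11.6% of all genes were called in either direction. In this list *Pdk4*, a pyruvate dehydrogenase kinase, was called higher and *Slc16a7* (MCT2), a monocarboxylate carrier, lower. Both were named after their values were seen, were well above background on 1 array of the pair (at least 1.45-fold and at least 1.29-fold), and were not called with normexp, nor *Pdk4* under spike-in scaling. Spike-in scaling gave 0 higher and 8 lower of the 16 at E8.5, where 49% of all genes were then called. Leaving out the scaling gave 1 higher and 3 lower, against 17.8% of all genes called. At E10.5 0 genes were called, against 7.72% of all genes, and limma called 0 of 16, with a lowest adjusted p of 0.898.

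Of 7 regulators of glycolytic flux, limma called *Txnip* and *Pfkfb4* higher and *Pfkfb1*, *Pfkfb3* and *Gckr* lower at E10.5, which, *Txnip* and *Pfkfb3* apart, were named after their values were seen. Of all probes limma called 15.7% higher and 19.6% lower. *Pfkfb3*, whose product makes the activator of phosphofructokinase, fell 2.15-fold in WT and 3.06-fold in the *Dyrk2*-/--labelled pair. *Txnip*, whose product curbs glucose uptake, was at 2.39 and 1.72 at E8.5 and at 2.90 and 2.68 at E10.5. It was the only gene of the list called between the genotypes, 1.60-fold lower at E8.5, where 11.6% of all genes were called. There spike-in scaling gave 5 of 7 lower and leaving out the scaling 2, against 49% and 17.8% of all genes called. Limma called *Txnip* for the genotype without scaling (adjusted p = 0.0153) and without the filter on dim probes (adjusted p = 0.0209). Of 7 genes of the pentose phosphate pathway, which branches off at glucose 6-phosphate, *Rpia* was called higher in each pair (*Pgls* too with normexp in WT and under spike-in scaling in the other pair) and *Pgd* lower in the *Dyrk2*-/--labelled pair alone, a call lost under spike-in scaling and without scaling. Among all genes 18.8% were called higher and 17.5% lower in WT, and 17.6% and 13.9% in the other pair. Limma called *Rpia* higher and *Pgd* and *Tkt* lower, against 15.7% and 19.6% of all probes, and these 3 genes were named after their values were seen. The medians of the list were −0.33 and −0.25 between the stages, the latter above 0 under spike-in scaling and without scaling, and 0.01 and −0.0092 between the genotypes. There 0 genes were called, against 11.6% and 7.72% of all genes (3 lower at E8.5 under spike-in scaling, against 49%).

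Of 20 hypoxia factors and targets outside glycolysis, 8 were called lower and 2 higher at E10.5 in WT (median −0.49), against 17.5% and 18.8% of all genes. In the *Dyrk2*-/--labelled pair 12 were called lower and 1 higher (median −0.76), against 13.9% and 17.6%. Spike-in scaling gave 4 lower and 4 higher in the latter pair (median −0.12), and normexp 5 lower in WT. Limma called 14 lower and 1 higher, against 19.6% and 15.7% of all probes. At E8.5 between the genotypes 17 of the 20 were above 0 with a median of 0.25, but the median fell below 0 without scaling (−0.0068) and under spike-in scaling (−0.30), where 9 and 3 of the 20 were above 0. Only *Adm*, which encodes adrenomedullin, and *Car9*, a carbonic anhydrase, were called there, against 11.6% of all genes. They were 2.50-fold and 1.93-fold higher on the array labelled *Dyrk2*-/-, and *Car9* was not called under spike-in scaling or with normexp. At E10.5 none of the 20 was called, against 7.72% of all genes, and limma called 0 of 20 for the genotype, with a lowest adjusted p of 0.986.

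Markers of several cell types moved with the stage and with the genotype. Of 15 erythroid markers on the array, 15 were called higher at E10.5 in each pair, against 18.8% of all genes in WT and 17.6% in the other pair. On the arrays labelled *Dyrk2*-/- 13 of 13 tested were called higher at E8.5 and 10 of 15 at E10.5, against 5.14% and 3.5% of all genes. The summed signal of the list, relative to the 75th percentile of each array, was 17.6 and 389 at E8.5, then 1388 and 1628, beside 835 and 860 and then 557 and 577 for the 10 glycolysis and transport genes. The brightest marker probe was that of *Hbb-bh1*, an embryonic globin, on the E8.5 arrays (3.37 and 7.15) and that of *Hbb-y*, another embryonic globin, on those of E10.5 (8.44 and 8.47). Limma's test of genotype called 1 of the 15, against 0.0186% of all probes. It was *Epor*, the erythropoietin receptor gene, called higher (adjusted p = 0.0434, log2 difference 1.26 ± 0.14, higher at 2 of 2 stages), and this gene was named after its values were seen. The count ran from 0 without the intensity trend to 14 without the filter on dim probes and 15 without scaling, and spike-in scaling called 7, *Epor* not among them (adjusted p = 1). Among those not well above background on the WT E8.5 array were *Hbb-b1*, *Hbb-b2*, *Epb4.2* and *Klf1*, and on the other E8.5 array *Hbb-b1* and *Epb4.2*. The part of the erythroid markers in the differences of the glycolysis and transport genes was not tested.

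Of 11 markers of yolk sac endoderm, 7 were called lower and 0 higher on the E8.5 array labelled *Dyrk2*-/- (3 lower with normexp and 11 under spike-in scaling and without scaling), against 6.5% and 5.14% of all genes. At E10.5 0 of 10 were called (3 lower without scaling), against 7.72% of all genes. Limma's test of genotype called 0 of these 11, with a lowest adjusted p of 0.342, but 8 without scaling and, without the filter on dim probes, *Ttr* and *Rbp4*, both named after their values were seen. Between the stages 9 were called lower in each pair, against 17.5% of all genes in WT and 13.9% in the other pair. *Trf*, which encodes transferrin, was called higher in each and *Afp* in the *Dyrk2*-/--labelled pair (in WT too under quantile normalization, with normexp, without scaling and in the deposited table), against 18.8% and 17.6% of all genes, *Trf* being named after its values were seen. The summed signal of the 11 markers was 62.9 and 41.2 at E8.5, then 26.3 and 21.5, and the brightest probe was that of *Rbp4* on the E8.5 arrays and that of *Afp* on those of E10.5. *Cubn*, an endocytic receptor of this tissue, was 36.1-fold lower at E10.5 in WT and 18.2-fold lower in the other pair, *Apoa4* had no signal well above background at E10.5, and *Amn* none at E10.5 in the *Dyrk2*-/--labelled embryos. The part of these markers in the stage and genotype differences above was not tested.

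Limma also called 7 of 10 neural markers and 6 of 6 macrophage markers higher at E10.5, and 5 of 6 mesoderm and somite markers lower. Of 9 heart markers it called 3 higher and 6 lower, of 7 endothelial markers 3 and 3, and of 6 markers of trophoblast and decidua 2 and 4. Of all probes 15.7% were called higher and 19.6% lower. For the genotype limma called 0 genes of these lists, with a lowest adjusted p of 0.290, but *Elavl4*, *Stmn2*, *T* and *Tbx6* without scaling and the latter 3 without the filter on dim probes, *Elavl4* being named after its values were seen. At 1.5-fold, 10 of their 41 genes tested were called between the genotypes at E8.5 (6 higher and 4 lower), against 11.6% of all genes, and 6 of 40 at E10.5 (5 of them lower), against 7.72%. Spike-in scaling gave 2 higher and 17 lower at E8.5 and 2 lower at E10.5, leaving out the scaling 3 higher and 9 lower at E8.5 and 9 lower at E10.5, and normexp 3 higher and 0 lower at E8.5. *T*, the Brachyury gene of early mesoderm, was 2.81-fold lower and *Tbx6*, a gene of presomitic mesoderm, 3.16-fold lower at E10.5 in the *Dyrk2*-/--labelled embryos, with log2 ratios of −0.35 and 0.06 at E8.5. The summed signal was 34.9 and 31.3 at E8.5, then 99.1 and 73.4, for the neural markers, 1.30 and 1.32 and then 4.19 and 3.30 for the macrophage markers, and 220.2 and 233.4 and then 136.9 and 136.3 for the heart markers. For the mesoderm and somite markers it was 21.9 and 23.3 and then 9.69 and 9.39, for the endothelial markers 17.7 and 21.3 and then 20.5 and 20.0, and for those of trophoblast and decidua 17.4 and 12.0 and then 19.0 and 23.3. Of the 10 trophoblast and decidua genes on the array, 6 were not well above background on either E10.5 array. The brightest of that list was *Gcm1*, at 3.97 and 4.22 on those arrays, while the median log2 ratio of the genes tested between the stages was −1.83 in WT and −2.02 in the other pair. The part of these marker lists in the results was not tested.

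The genes nearest to *Slc2a3* over the 4 arrays were found among 18686 genes well above background on all of them, as those with the smallest root mean square distance after each gene's own mean was subtracted. They were *Cpn1* (0.04), *Nepn* (0.06), *Nr6a1* (0.09), *Pyy* (0.10) and *Thy1* (0.17). *Nr6a1*, an orphan nuclear receptor gene, was at 5.60 and 5.36 at E8.5 and at 1.49 and 1.87 at E10.5. Nearest to *Ldha*, at a distance of 0.01 each, were a noncoding RNA of chromosome 15, *Uspl1*, *1700049J03Rik*, *Gjb1* and a probe without a gene name. A distance over 4 arrays describes these arrays only.

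Promoters were read from RefSeq (GRCm38.p6), as the 250 bases before the transcript start. Matched were 9 of the 10 genes, all but *Slc2a3*, with 13 promoters. Searched on both strands were ACGTG and GCGTG, the core letters to which hypoxia-inducible factors bind, and CACGTG, an E-box that holds ACGTG on each strand. ACGTG or GCGTG occurred in 12 of the 13 promoters, against 38.6% of 32851 promoters of all genes, and 3 or more matches in 3 of the 13, against 6.58%. Of the 3 *Eno1* promoters 2 overlap, starting at 150236947 and 150236974 of chromosome 4, and so are not separate. ACGTG alone occurs in 16.6% of all promoters, GCGTG in 28.2% and CACGTG in 6.02%. The promoters of *Hk2* and *Pgk1*, which fell between the stages, of *Ldhb*, which rose, and of *Ldha*, whose probes disagreed, are shown 5′ to 3′ with matches in capitals.

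Hk2 (chr6:82774455-82774704, minus strand): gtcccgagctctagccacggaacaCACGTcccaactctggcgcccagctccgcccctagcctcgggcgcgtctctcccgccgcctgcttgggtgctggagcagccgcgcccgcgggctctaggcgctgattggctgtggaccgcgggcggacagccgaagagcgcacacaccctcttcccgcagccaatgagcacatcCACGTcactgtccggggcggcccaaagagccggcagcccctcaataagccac

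Pgk1 (chrX:106186850-106187099, plus strand): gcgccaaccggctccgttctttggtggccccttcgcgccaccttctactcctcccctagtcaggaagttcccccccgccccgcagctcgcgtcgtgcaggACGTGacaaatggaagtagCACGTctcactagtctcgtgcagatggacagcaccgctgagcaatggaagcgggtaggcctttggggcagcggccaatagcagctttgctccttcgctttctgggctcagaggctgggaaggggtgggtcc

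Ldhb (chr6:142507958-142508207, minus strand): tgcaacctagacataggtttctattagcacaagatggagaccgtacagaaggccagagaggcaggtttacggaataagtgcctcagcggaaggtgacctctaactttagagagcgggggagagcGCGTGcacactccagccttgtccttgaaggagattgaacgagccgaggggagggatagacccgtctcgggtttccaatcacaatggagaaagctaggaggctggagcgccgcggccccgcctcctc

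Ldha (chr7:46845554-46845803, plus strand): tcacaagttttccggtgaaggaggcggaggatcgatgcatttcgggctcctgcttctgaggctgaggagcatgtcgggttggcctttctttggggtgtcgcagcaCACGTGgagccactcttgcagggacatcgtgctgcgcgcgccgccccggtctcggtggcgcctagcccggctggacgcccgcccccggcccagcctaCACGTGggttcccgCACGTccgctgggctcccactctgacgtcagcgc

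Of the 13 promoters, that of *Ldha* shown here was the only one with CACGTG, in 2 copies, and its 5 matches of ACGTG count each copy on both strands. A match describes letters in this window and is no sign that a factor was bound.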

How the data were processed

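Whole-embryo RNA was measured on 4 Agilent SurePrint G3 arrays, 1 per genotype and stage. What the authors deposited was scanner output, in which the processed intensity of a spot is linear, background-subtracted and not scaled between arrays. The file headers name Feature Extraction 10.7.1.1, and the submitters' processing notes 9.5.1.1. A further table that the authors deposited holds linear intensities, whose 4 columns share 1 distribution, with a median log2 value of 4.79 in each. It was used as an alternative, and how it was scaled is not given in the sources used here. Its median absolute log2 difference from the quantile-normalized scanner values was 0.0064, so that it nearly repeats that alternative.

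Spots marked as outliers were left out, log2 values were averaged per probe, and each array's 75th percentile was subtracted. Being well above background required that marked spots of a probe were no fewer than unmarked ones, and no spot was saturated. A gene stood for the probe with the highest mean signal, and was compared where that probe was well above background on either array of a pair. Where it was so on 1 array alone, the fold was taken against the probe's value on the other or, if higher, the least value among that array's probes well above background (−4.82 and −4.53 at E8.5, −4.72 and −4.77 later), and is given as at least that fold. Calls and medians used the values without this bound.

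Stage and genotype were tested in 1 fit of limma 3.58.1 (lmFit and eBayes, the latter with a trend on intensity), each as a block for the other, over probes with signal well above background on 2 or more arrays. Its residual is how far the genotype difference at E8.5 departs from that at E10.5. The fit was also run on simulated data, of which no result is used here. Python 3.11.15 (pandas 2.3.3, numpy 2.4.6, matplotlib 3.10.9) and R 4.3.3 with the data.table package (1.17.8) were used. Probes were placed on mm9 by the annotation of the array, for which no exon annotation was used here.

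Alternatives were quantile normalization, scaling by spike-in controls (median of the 7 of 10 such probes well above background on every array) and no scaling. Others were normexp with an offset of 50 followed by quantile normalization, the deposited table and averages over probes. An average took the probes of a gene well above background on 1 or more arrays, so that probes dim on a pair could enter. Filters on both arrays of a pair, on all 4 arrays or none, a 2-fold threshold and eBayes without the trend were also used. The second brightest probe of a gene was added as an alternative after the data had been seen.

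The genes named were the 10 genes with their probes, *Dyrk2* and sex chromosome genes; from each list, genes past 1.5-fold between genotypes on probes well above background on both arrays (at most the 4 largest) and the brightest gene; from the glycolysis, transporter and lactate lists also the 4 largest stage differences; and the 5 nearest neighbours of the genes with the largest and smallest range. Not every gene this rule allows is named, and single values of some listed genes are not reported here. The members and the lists were chosen with earlier results of these data known.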

Additional observations from a re-analysis of the deposited data

Results flagged for a closer look

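The brightest *Hk1* probe moved in opposite directions between the stages in the 2 genotypes, with a log2 ratio of E10.5 against E8.5 of −0.61 in WT and of 1.02 in the *Dyrk2*-/--labelled pair. The difference between the genotypes was not tested, and each direction rests on 1 array per group. The second *Hk1* probe well above background on all 4 arrays had ratios of 0.83 and 0.25.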

How the results depend on the processing

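With the second brightest probe of a gene, chosen after the data had been seen, the log2 ratio of *Hk1* reversed to 0.54 between the genotypes at E8.5 and to 0.83 between the stages in WT, while 0 genes were called at E8.5 and 1 (*Slc2a3*) at E10.5. At E8.5 the number of the 10 genes called between the genotypes, 1 in the report, was 4 under spike-in scaling and 2 without scaling, each lower. Over all genes 49% and 17.8% were then called, against 11.6%. When probes were averaged, that number was 2 (*Pfkp* and *Pgk1*, higher). The *Pgk1* average holds the probe of the opposite strand, which was not well above background on either E8.5 array. That call therefore rests on a probe without such signal. The median log2 ratio of the 10 genes between the genotypes became −0.52 at E8.5 and 0.24 at E10.5 under spike-in scaling, and −0.23 and −0.049 without scaling. Between the stages in WT it was −0.81 under quantile normalization, −0.77 without scaling, −0.83 with normexp and −0.81 in the deposited table. When probes were averaged it was −1.18, and with the second brightest probe −1.45. In the *Dyrk2*-/--labelled pair it was −0.35 under spike-in scaling, −0.68 without scaling and −1.46 with the second brightest probe. Limma called 2 of the 10 genes for the genotype without scaling (*Hk1* and *Ldhb*, lower) and 1 without a filter (*Hk1*, lower), and 2 for the stage under spike-in scaling. The cause was not tested.

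The other totals of these genes called, both directions together, stayed within 1.5 times, and each stage median stayed below 0. Those called higher at E10.5 in WT, 1 in the report, were 2 with the second brightest probe, and in the other pair 1, in place of 2, with that probe and when probes were averaged. Limma called 2 higher without scaling, in place of 1. Over all probes, limma's 6 calls for the genotype became 29 under quantile normalization, 37 under spike-in scaling, 729 without scaling, 25 with normexp, 40 in the deposited table, 10 with a filter on all 4 arrays, 564 without a filter and 0 without the intensity trend. Its 11397 calls for the stage became 2633 under spike-in scaling and 6437 without the trend. Of all genes called, 55.9% and 54.6% were lower between the genotypes at E8.5 and E10.5, and 48.2% and 44.2% between the stages in WT and in the other pair. Under spike-in scaling these shares were 97.1%, 30.8%, 54.7% and 8.44%, and without scaling 86.2%, 71.1%, 33.1% and 20.5%. For single genes, 28 of 40 log2 ratios in the deposited table and 10 of 40 under spike-in scaling moved by less than the spread between spots. Without scaling all 40 moved by more than that. Requiring signal on both arrays of a pair has no counterpart in the limma fit and was not run there. No pairing by replicate could be made, since each group has 1 array, and the stage and genotype blocks of the limma fit are its pairs. Signal near background limits probes of low level, for which folds are bounds where 1 array of the pair lacked signal well above background.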
